A study of Mus musculus with 4 samples.

Results

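Promoters shared by neighbouring genes were taken as the regions of open chromatin (peaks) that lay within 1 kb of the deposited start intervals of at least 2 genes with different identifiers. Of 174339 peaks, 3696 (2.12%) met this rule, 33574 lay near exactly 1 gene and 137069 near none. Most shared peaks, 3603 (97.5%), were near 2 genes, 84 near 3, 5 near 4, 2 near 5 and 2 near 7. They joined 6093 genes of 32272 (18.9%) into 3296 pairs, of which 2753 shared 1 peak, 502 shared 2 and 41 shared 3 or more.

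The nuclei came from the bone marrow of male C57BL/6 mice, from lineage-negative, cKit+ sorted cells, which hold the hematopoietic stem and progenitor cells (HSPCs). Multiome sequencing gave RNA, counted by unique molecular identifiers (UMIs), together with fragments of accessible DNA (ATAC) from each nucleus. GEO lists 4 samples in 4 groups: 1 RNA and 1 ATAC sample each for unligated control mice (Ctrl) and for mice with periodontitis induced by a silk ligature (Lig), both at 14 days, with the marrow of several mice pooled within a group and no replicates. The deposited matrix held both groups under barcode suffixes 1 and 2, and as no label tied a suffix to a group, they are called library 1 and library 2 here, and no difference between them is given a treatment direction.

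A nucleus was kept with at least 200 genes and 1000 to 50000 counts in peaks, which left 5905 of 8762 barcodes in library 1 and 7714 of 10199 in library 2. The kept nuclei held 10294527 and 12537328 UMIs and 118239764 and 128699726 ATAC counts. The median nucleus had more ATAC counts in library 1 (19471) than in library 2 (16284), and 72 barcode sequences occurred in both. Kit, the gene of the sort, had at least 1 UMI in 14.2% of nuclei. Of genes of mature blood cells, Itgam (CD11b) had at least 1 UMI in 2.80%, the B cell gene Ms4a1 in 0.573%, the neutrophil gene Ly6g in 0.272% and the T cell gene Cd3e in 0.0587%. Genes at the ribosomal locus of chromosome 17 (Gm42418, Gm26917 and AY036118) held 43.0% and 53.2% of all UMIs and lowered the CPM, the counts scaled to a total of 1000000, of every other gene accordingly. Intervals are exact 95% intervals (Clopper-Pearson for shares, Poisson for CPM) and cover counting error only. For shares of peaks, genes, pairs or combinations of a peak and a gene, they treat the members as independent. Genes and peaks recur among pairs and combinations, and all correlations use the same clusters of nuclei. Intervals of such shares may therefore be too narrow, and whether they overlap is a description and no test.

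Genes that lie head to head, on opposite strands with their starts close together, are said to have a bidirectional promoter. Polymerase can leave such a region in both directions, the region between the starts is often rich in CpG dinucleotides, and genes for DNA repair, mitochondrial proteins and chaperones are known to be frequent among such pairs. Pairs were called divergent when the start interval of the plus-strand gene lay after that of the minus-strand gene, so that both were read outwards. They were called facing when it lay wholly before it, so that the first parts of both genes overlapped, and interleaved when the intervals overlapped. Of the 3296 pairs, 1481 were divergent, 842 interleaved, 644 facing and 321 on the same strand, and for 8 the annotation gave no strand. Facing and interleaved genes overlap, and as the sources used here do not state whether counting used strand, their RNA values are uncertain. Both genes were protein-coding in 792 divergent pairs. The starts of divergent pairs lay a median of 153 bases apart (quartiles 81 and 311). Among annotated gene types, 172 of 189 long noncoding RNAs named for a bidirectional promoter (91.0%) had a shared peak, a class that the annotation itself defines by position.

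The DNA between the starts is shown for the named pairs whose starts lie 50 to 300 bases apart, since this is the stretch that both genes use. Each runs 5′ to 3′ on the plus strand of GRCm38 (RefSeq genome). Capitals mark letters searched on both strands: CCAAT is known to be bound by NFY, GGGCGG by SP factors, CCGGAAG by ETS factors, GCGCATGC by NRF1, TGACGTCA by CREB and related factors, and CACGTG by E-box factors. Also searched were TATAAA as the core promoter element of that name, AAGATGGC for YY1, GGCGGGAA for E2F and ACTACAAT for ZNF143, and matches of different factors may overlap.
Hspd1 (minus strand) and Hspe1 (plus strand), chr1:55088025-55088131: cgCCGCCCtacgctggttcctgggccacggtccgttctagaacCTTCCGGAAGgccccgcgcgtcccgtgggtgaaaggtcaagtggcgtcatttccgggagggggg
Polh (minus strand) and Xpo5 (plus strand), chr17:46202646-46202781: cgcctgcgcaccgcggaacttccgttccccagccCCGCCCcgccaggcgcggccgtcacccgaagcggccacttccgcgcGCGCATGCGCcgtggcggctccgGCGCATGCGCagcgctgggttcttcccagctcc
Utp18 (minus strand) and Mbtd1 (plus strand), chr11:93885767-93885851: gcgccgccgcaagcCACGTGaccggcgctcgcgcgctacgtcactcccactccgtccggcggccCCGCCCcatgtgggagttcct
Dtl (minus strand) and Ints7 (plus strand), chr1:191575545-191575635: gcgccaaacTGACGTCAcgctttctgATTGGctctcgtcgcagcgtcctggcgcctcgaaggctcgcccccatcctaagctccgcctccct
Ankib1 (minus strand) and Krit1 (plus strand), chr5:3802926-3803183: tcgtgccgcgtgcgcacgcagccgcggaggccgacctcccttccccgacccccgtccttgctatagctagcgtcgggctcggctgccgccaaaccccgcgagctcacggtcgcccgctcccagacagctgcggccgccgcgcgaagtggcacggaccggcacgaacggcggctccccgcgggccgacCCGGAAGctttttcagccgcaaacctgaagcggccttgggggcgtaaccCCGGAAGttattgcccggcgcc
Glyr1 (minus strand) and Ubn1 (plus strand), chr16:5049864-5050056: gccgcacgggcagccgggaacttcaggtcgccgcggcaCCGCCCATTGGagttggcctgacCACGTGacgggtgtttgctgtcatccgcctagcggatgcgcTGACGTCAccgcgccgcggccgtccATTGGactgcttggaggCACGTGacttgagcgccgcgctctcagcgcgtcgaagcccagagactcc
Larp7 (minus strand) and Zgrf1 (plus strand), chr3:127553350-127553488: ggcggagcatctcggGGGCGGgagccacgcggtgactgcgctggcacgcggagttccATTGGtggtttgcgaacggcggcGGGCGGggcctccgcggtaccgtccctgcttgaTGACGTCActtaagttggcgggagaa
Mrpl49 (minus strand) and Fau (plus strand), chr19:6057786-6057843: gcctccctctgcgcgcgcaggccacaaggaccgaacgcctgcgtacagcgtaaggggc

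None of these 8 stretches held TATAAA. The 107 bases between Hspd1 and Hspe1 held 12 CpGs and 2 overlapping ETS matches that read the same on both strands. The 136 bases between Polh and Xpo5 held 4 NRF1 matches, in 2 palindromic pairs. The stretch between Glyr1 and Ubn1 held NFY, SP, CRE and E-box letters, and the 58 bases between Mrpl49 and Fau held none of the letters searched. A match describes the sequence and is not a measured binding site.

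The first question was how often shared promoters were open. A peak was counted as open in a nucleus with at least 1 ATAC count. The median shared peak was open in 20.5% of nuclei (21.9% in library 1 and 19.4% in library 2), the median single-gene peak in 4.30% (4.54% and 4.08%), and the median peak near no gene in 1.96%. At least 20% of nuclei had the peak open at 1890 shared peaks (51.1%) and at 5464 single-gene peaks (16.3%), against 4.71% of all peaks. Widths hardly differed, with medians of 877 and 868 bases. The deposited start intervals of some genes span many alternative starts, and 13648 single-gene peaks had no annotated start within 1 kb and were open in a median of 2.05%. With an annotated start of a protein-coding gene inside the peak, single-gene peaks were open in a median of 15.9% (11994 peaks), and shared peaks with starts of 2 protein-coding genes inside in 30.9% (945 peaks). Of the shared peaks, 3266 (88.4%) had annotated starts of at least 2 genes within 1 kb, and the other 430 were open in a median of 4.78%. The rule already asks for the start intervals of the same genes within 1 kb, so the 88.4% is no separate support for the label of shared promoters.

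**Figure D1:**
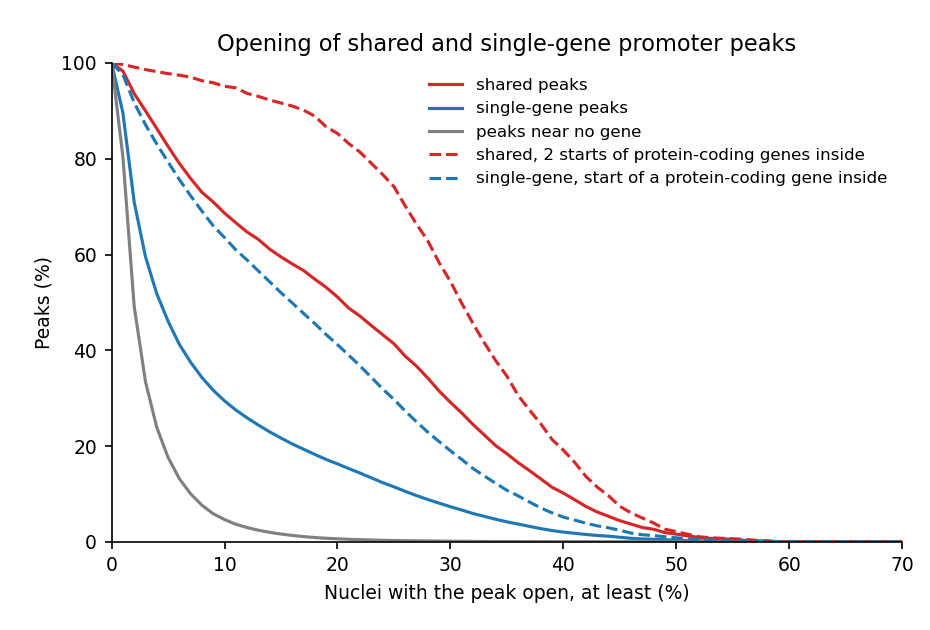
Share of peaks (vertical axis, %) that were open in at least the share of nuclei on the horizontal axis (%), over the kept nuclei of both libraries. Solid lines show all shared (3696), single-gene (33574) and no-gene (137069) peaks, and dashed lines the peaks with annotated starts of protein-coding genes inside. At 20% of nuclei the shared line stands at 51.1% and the single-gene line at 16.3%.

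The arrangement of the genes went with different levels of opening. Shared peaks of divergent pairs were open in a median of 27.1% of nuclei (1604 peaks), those of facing pairs in 15.6% (718), of interleaved pairs in 13.2% (1026) and of same-strand pairs in 7.17% (250). Where both genes were protein-coding, divergent peaks were open in 29.7% (850 peaks), facing peaks in 27.5% (98), interleaved peaks in 22.0% (419) and same-strand peaks in 7.81% (149). Peaks of 1 protein-coding gene and 1 other gene were open in 15.5% (1969 peaks), and peaks of 2 other genes in 4.35% (118). Among divergent pairs, the most open peak had a median of 26.7% where the starts lay up to 100 bases apart, 31.1% at 100 to 300 bases and 33.1% at 300 to 600 bases. It was 24.4% at 600 to 1000 bases and 20.8% at 1000 to 3000 bases. The quartiles of neighbouring distance classes overlapped, and the classes beyond 600 bases held 101 and 92 pairs.

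**Figure D2:**
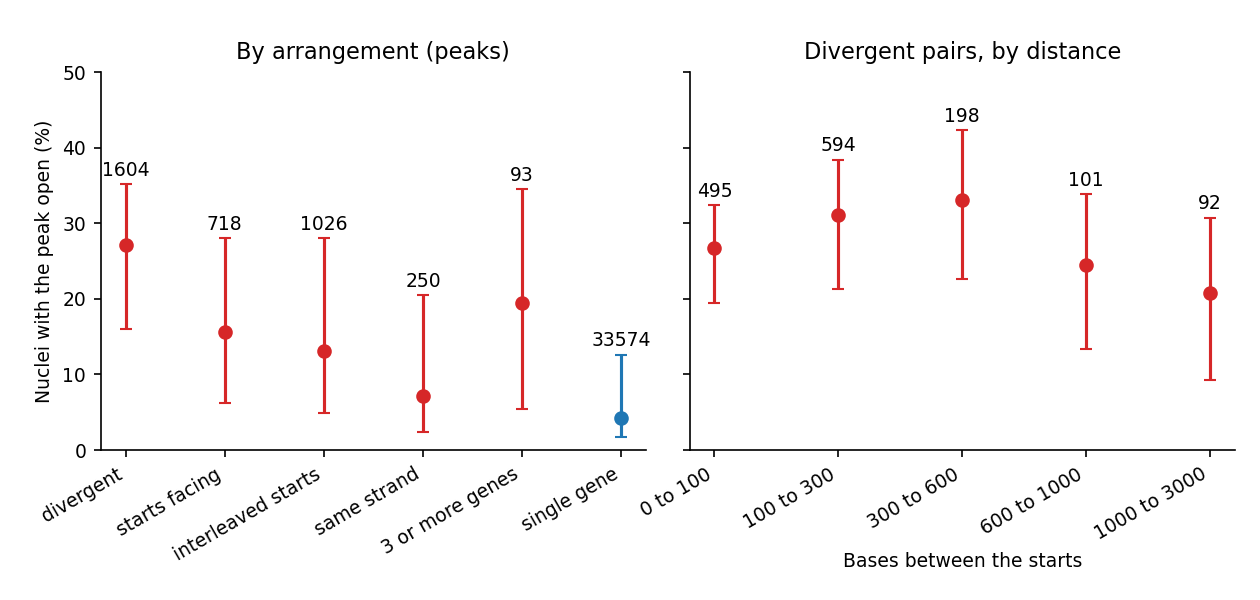
Share of nuclei with the peak open (vertical axis, %), as the median (point) and quartiles (bars) over shared peaks by gene arrangement, with single-gene peaks in blue (left), and over divergent pairs, with their most open peak, by the bases between the starts (right). Numbers above the bars count peaks or pairs. Divergent peaks have a median of 27.1% and same-strand peaks of 7.17%, and the distance classes have their highest median, 33.1%, at 300 to 600 bases.

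The most open shared peak, chr17:39845587-39846454, lay at the ribosomal locus beside Gm26917 and Gm42418 and was open in 96.2% of nuclei. The genes of this locus share sequence with the repeated ribosomal RNA genes, so neither its ATAC counts nor its UMIs can be assigned to 1 copy. The next was the peak between Gt(ROSA)26Sor, a noncoding transcript of the safe-harbour locus used for transgenes, and Setd5, a chromatin regulator (chr6:113076263-113077532), open in 68.2% of nuclei of library 1 (67.0 to 69.3%) and 61.6% of library 2 (60.5 to 62.7%). The peaks of Tbc1d10b with the muscle gene Mylpf, of C330013E15Rik with Dazap2 and of Nfya with Oard1 followed, at 58.6%, 58.5% and 58.0% of all nuclei. The genes of these 4 peaks were unequal in RNA. Setd5 had 4328 UMIs and Gt(ROSA)26Sor 632, Dazap2 had 1175 and C330013E15Rik 7, Nfya, a subunit of NFY, had 927 and Oard1 134, and Tbc1d10b had 285 and Mylpf 25. The peaks with the most genes were those over the T cell receptor beta joining segments Trbj1-1 to Trbj1-7 (chr6:41534376-41535327) and Trbj2-1 to Trbj2-7 (chr6:41543237-41543929), which were open in 1.05% and 1.36% of nuclei. All 14 segments had 0 UMIs, with upper bounds from counting error of 0.358 CPM each in library 1 and 0.294 in library 2. Whether RNA of such segments is counted under their own names was not tested, so the bounds do not limit their transcription. Both peaks were highest in the pro-NK/T-like cluster, at 5.35 and 7.14 CPM of ATAC counts, and at 0 in the mature B-like cluster. They held only 263 and 301 counts over all nuclei, so the values of single clusters rest on few counts.

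RNA was then compared over the genes. At least 20 UMIs were counted for 63.5% of the 6093 genes with a shared peak and for 58.5% of the 14647 genes with single-gene peaks only. Among protein-coding genes the shares were 81.2% (4166 genes) and 69.1% (11875), and among other genes 25.3% (1927) and 12.8% (2772). Genes of divergent protein-coding pairs reached 87.6% (1572 genes). Levels were compared between genes per kb of gene span, a scale on which long genes have lower values than short ones. Among protein-coding genes of up to 10 kb, the median was 24.7 UMIs per kb in divergent pairs and 5.32 in single-promoter genes, from 10 to 30 kb it was 10.8 and 5.88, from 30 to 100 kb 6.47 and 4.86, and over 100 kb 3.11 and 0.891. Among protein-coding genes with at least 20 UMIs the medians were closer, at 12.6 and 10.3 UMIs per kb. In UMIs, with no division by span, the order was the reverse, at 252 and 272. The median spans of these genes were 19.2 and 29.1 kb. Opening had the higher median for divergent pairs in each of the 5 classes of RNA level. Genes with 0 UMIs had their most open peak open in a median of 9.03% of nuclei in divergent protein-coding pairs (19 genes) and 2.29% in single-promoter protein-coding genes (508). From 20 to below 200 UMIs the medians were 30.1% and 15.0%, and at 2000 or more they were 36.7% and 32.1%. A gene of a pair with low RNA shares its peak with a partner that may have more, so these medians do not describe the gene alone.

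Within a pair, both genes were usually detected, but at levels that often differed. Both genes had at least 20 UMIs in 622 of 792 divergent protein-coding pairs (78.5%, 75.5 to 81.3%), 1 gene in 144 and neither in 26. In these 622 pairs the higher gene had a median of 3.19 times the UMIs per kb of the lower. The genes lay within 2-fold of each other in 204 pairs (32.8%) and at least 10-fold apart in 127 (20.4%). In UMIs, with no division by span, the median fold was 3.08, with 198 pairs within 2-fold and 97 at least 10-fold apart (15.6%). Across the pairs, Spearman's rho of UMIs per kb was 0.17 (n = 622, pairs of different genes over the same nuclei). Divergent protein-coding neighbours without a shared peak, next to each other within 50 kb, gave 0.078 (n = 852). Their median fold was 3.86 per kb and 3.77 in UMIs. Both genes had 20 UMIs in 37.2% of 2288 such pairs (35.3 to 39.3%). These neighbours were not required to have any peak near their starts, and the part of this in the 37.2% was not tested. Where a divergent pair joined 1 protein-coding and 1 other gene, both had at least 20 UMIs in 196 of 661 pairs (29.7%), and the protein-coding gene was the higher per kb in 154 of them (78.6%).

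**Figure D3:**
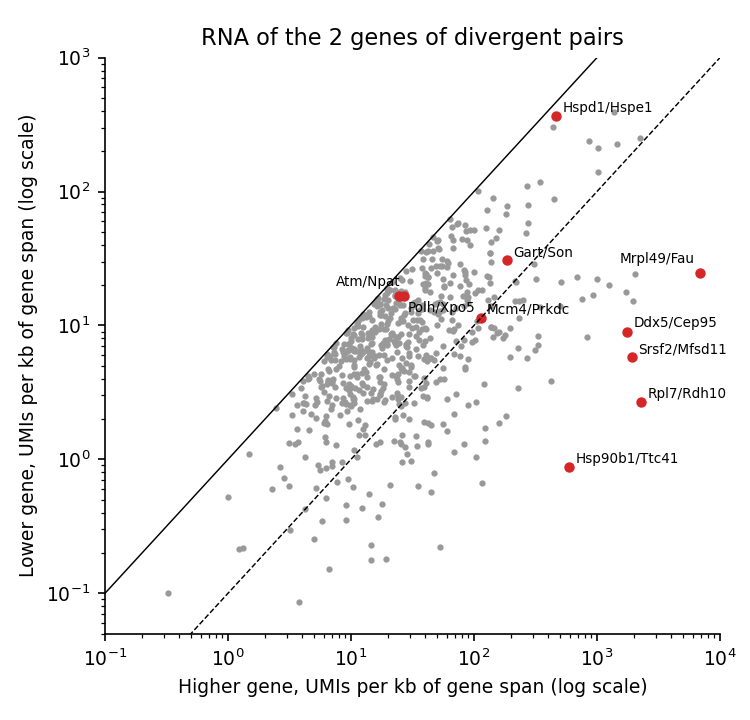
UMIs per kb of gene span of the higher gene (horizontal axis, log scale) and the lower gene (vertical axis, log scale) in the 622 divergent protein-coding pairs with at least 20 UMIs in each gene. The solid line marks equal levels and the dashed line a 10-fold difference, beyond which 127 pairs lie. Pairs labelled in red include Hspd1/Hspe1, with a 1.28-fold difference, and Rpl7/Rdh10, with an 850-fold difference and starts 1111 bases apart.

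Unequal levels were described among the 118 divergent protein-coding pairs with at least 20 UMIs in the gene that was lower per kb and 1000 in the higher. Rpl7, a ribosomal protein gene, had 7675 UMIs in the pair that was most unequal per kb, and its divergent partner Rdh10, a retinol dehydrogenase, had 75 (2279 and 2.68 UMIs per kb, 850-fold). Their starts lay 1111 bases apart. The more open of their 2 shared peaks (chr1:16104181-16104982) held the start of Rpl7 but ended before that of Rdh10, at 16105774. Hsp90b1, a chaperone of the endoplasmic reticulum, had 9127 UMIs and Ttc41 had 62, and their peak (chr10:86705253-86706083) was open in 49.6% of nuclei of library 1 (48.3 to 50.9%) and 42.3% of library 2 (41.2 to 43.4%). The splicing factor Srsf2 had 6172 UMIs and Mfsd11 134, with a peak open in 59.3% and 54.4%. Fau, which encodes a ribosomal protein fused to a ubiquitin-like protein, had 543 CPM in library 1 (529 to 557) and 484 in library 2 (472 to 497), whereas Mrpl49, a mitochondrial ribosomal protein, had 4.76 (3.52 to 6.29) and 4.23 (3.17 to 5.53). Only 58 bases lay between their starts. The RNA helicase Ddx5 had 15469 UMIs and Cep95 276. The peak of Ddx5 and Cep95 ended at 106789141 of chromosome 11, before the starts of Cep95, from 106789252. In all 5 of these pairs the same gene was the higher in both libraries and the intervals of the genes did not overlap. The pairs were picked for unequal levels over both libraries together, so this follows from the choice and is no separate support.

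Of 26 pairs listed as known neighbours, 22 shared a peak and 14 of these were divergent. Their most open peaks were open in a median of 35.9% of nuclei, from 9.36% (Col4a1/Col4a2, collagen genes) to 51.6% (Hspd1/Hspe1), and both genes had at least 20 UMIs in all 22. Ercc1/Cd3eap, Ung/Alkbh2, Brca2/Zar1l and Fancf/Gas2 shared none, with start intervals that lay 2167 to 16699 bases apart.

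Values are given for 7 of the 8 listed pairs with the most UMIs in the lower gene. Hspd1 (ENSMUSG00000025980) and Hspe1 (ENSMUSG00000073676) encode the mitochondrial chaperonin and its co-chaperonin, and their peak (chr1:55087583-55088503), around the sequence printed above, was open in 54.7% of nuclei of library 1 (53.5 to 56.0%) and 49.2% of library 2 (48.0 to 50.3%). Hspd1 had 160 CPM in library 1 (152 to 168) and 172 in library 2 (165 to 179), and Hspe1 had 65.3 (60.4 to 70.4) and 64.8 (60.4 to 69.4). Per kb they were nearly level, at 365 and 467 UMIs. Mcm4, a subunit of the replicative helicase, and Prkdc, the catalytic subunit of the DNA-dependent protein kinase, had 1535 and 2331 UMIs, but Prkdc spans 204 kb and had 11.4 UMIs per kb against 114 for Mcm4. Their peak was open in 47.6% and 42.5%.

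Atm, the kinase that signals DNA breaks, and Npat, an activator of histone genes, had 93.5 CPM (87.7 to 99.6) and 60.7 CPM (56.0 to 65.7) in library 1. In library 2 they had 51.7 (47.8 to 55.8) and 30.7 (27.7 to 33.9), so that both were lower there, as was the median gene. Gart, a purine synthesis enzyme, had 791 UMIs and the splicing cofactor Son 5903. Polh, a DNA polymerase that bypasses UV lesions, had 522 and the nuclear export factor Xpo5 had 999. Ppat and Paics, which encode purine synthesis enzymes, were a facing pair with 835 and 1060 UMIs and a peak open in 53.4% and 45.9%. Sirt3, a mitochondrial deacetylase, and Psmd13, a proteasome subunit, were interleaved and had 474 and 1525 UMIs, with a peak open in 28.5% and 25.6%. Each of these 7 peaks was open in a larger share of nuclei in library 1, the library with more ATAC counts per nucleus.

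How far the genes of a pair varied together was described across clusters of nuclei. Joint clustering, made without the paired genes among the variable genes and without the shared peaks, gave 17 clusters, of which 16 with at least 100 nuclei were used and 12 were named from fixed markers, with a name ending in -like. In spite of the sort against lineage markers, 277 nuclei were mature B-like. Another 203 were pro-NK/T-like, and the study also names progenitor NK/T cells among the sorted cells. Pearson's r of log2(CPM + 1) was computed for pairs with at least 200 UMIs in each gene, 363 of 3296. Of these, 287 (79.1%, 74.5 to 83.1%) had r above 0, with a median of 0.27. Neighbouring pairs without a shared peak gave 66.6% (63.6 to 69.5%, 1036 pairs) and a median of 0.15, and all pairs of the 6907 genes with 200 UMIs gave 64.8% and 0.14. Divergent protein-coding pairs with a shared peak gave 79.9% (74.0 to 85.0%, 219 pairs) and those without one 72.5% (67.2 to 77.4%, 309 pairs), with intervals that overlap.

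These shares moved with the ribosomal locus and with the library. The locus held between 43.9% and 58.5% of the UMIs of the clusters used, and a larger share lowers all other genes of a cluster alike. With its genes left out of the totals, 68.3% of shared-promoter pairs (63.3 to 73.1%), 56.9% of neighbouring pairs (53.8 to 59.9%) and 54.8% of all pairs of genes had r above 0. For the same 363 and 1036 pairs within library 1 (14 clusters), the shares with these totals were 65.8% (60.7 to 70.7%) and 56.9%. Within library 2 (13 clusters) they were 54.5% (49.3 to 59.8%) and 55.4% (52.3 to 58.5%). With these totals the higher share of shared-promoter pairs was therefore not seen in library 2. Clusters share libraries and differ in depth, and r describes these 16 points only.

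**Figure D4:**
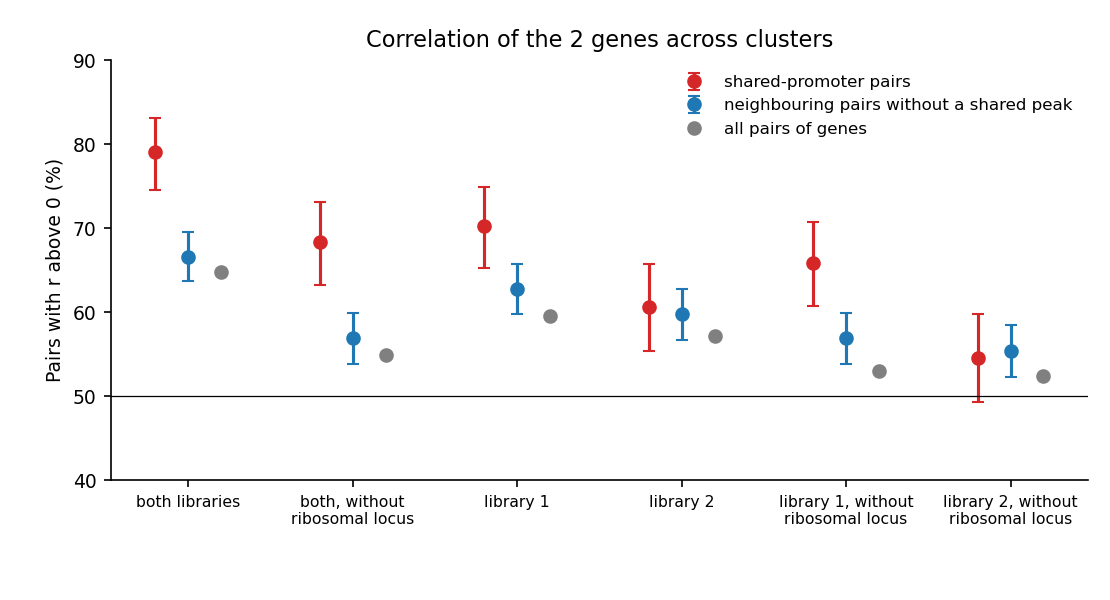
Share of gene pairs with r above 0 across clusters (vertical axis, %) for pairs with a shared peak (red, 363), neighbouring pairs without one (blue, 1036) and all pairs of genes with at least 200 UMIs (grey), with exact 95% intervals for the first 2 sets. The positions from left to right are both libraries with and without the ribosomal-locus genes in the totals, each library alone with them, and each library alone without them. Red stands above blue over both libraries (79.1% and 66.6%) and overlaps it in library 2 without the locus (54.5% and 55.4%).

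Among the 13 divergent protein-coding pairs with at least 1000 UMIs in each gene, r was highest for Utp18, which acts in ribosome assembly, and Mbtd1, a chromatin reader (r = 0.81). Utp18 ranged from 24.8 CPM in the NeuP-like cluster to 85.1 in unnamed cluster 4, and Mbtd1 from 37.2 to 166 in the same clusters. Leaving out each cluster in turn gave r from 0.75 to 0.85, and r was 0.89 within library 1 and 0.87 within library 2. Dtl, a substrate receptor that acts in replication, and Ints7, an Integrator subunit, followed (r = 0.75, 0.82 and 0.75 within the libraries). Dtl was highest in the pro-B-like cluster at 198 CPM, where Ints7 had 80.0 CPM, and both were low in the NeuP-like cluster, at 43.4 and 12.4 CPM. Ankib1/Krit1 (0.74), Hnrnpa2b1/Cbx3 (0.61), which encode an RNA-binding protein and a heterochromatin protein, and Atm/Npat (0.51) completed the 5 highest. Within libraries 1 and 2, r was 0.68 and 0.42 for Ankib1/Krit1, 0.66 and 0.61 for Hnrnpa2b1/Cbx3, and 0.61 and 0.17 for Atm/Npat, so the last was low in library 2. Without the ribosomal-locus genes the values over both libraries were 0.63, 0.45 and 0.31.

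The 5 lowest were Rsrc2/Kntc1 (0.0099), Glyr1/Ubn1 (0.15), Larp7/Zgrf1 (0.27), Safb2/Safb (0.27) and Git2/Ankrd13a (0.33). Kntc1, a mitotic checkpoint gene, was lowest in unnamed cluster 9 (8.63 CPM, 3 UMIs) and highest in the pro-B-like cluster, and Rsrc2 ranged from 58.5 CPM in unnamed cluster 7 to 146 in the mature B-like cluster. Without 1 cluster, r of Glyr1/Ubn1 lay between -0.05 and 0.64, so it rests on single clusters. Of these 5, Larp7/Zgrf1 had r below 0 within both libraries (-0.03 and -0.40), whereas the sign of Rsrc2/Kntc1, Glyr1/Ubn1 and Safb2/Safb differed between the libraries. Safb and Safb2, paralogs that may exchange reads, differed 1.02-fold per kb, and Ddx5 and Cep95, 195-fold apart, had r = 0.69, with 0.60 within library 1 and 0.33 within library 2.

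**Figure D5:**
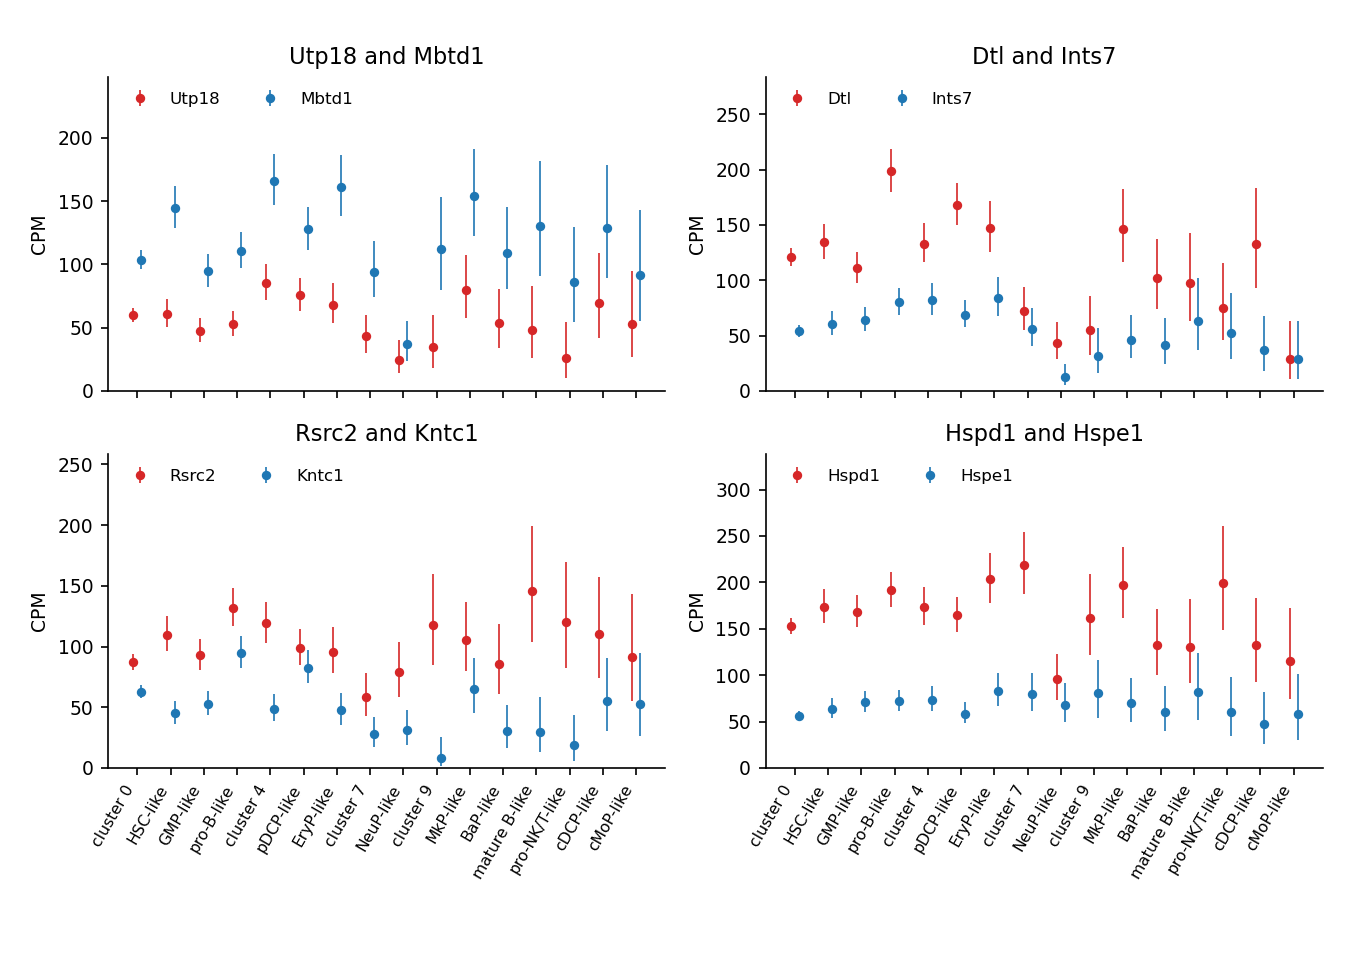
CPM (vertical axes) of both genes of 4 pairs in the 16 clusters used (horizontal axis), with exact 95% Poisson intervals as bars. Utp18 and Mbtd1 (r = 0.81) and Dtl and Ints7 (r = 0.75) are low together in the NeuP-like cluster, Rsrc2 and Kntc1 have r = 0.0099, and Hspd1 and Hspe1 have r = 0.37 over both libraries but 0.13 and 0.08 within libraries 1 and 2.

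The peak itself tracked the RNA of its genes less often at shared than at single-gene promoters. Over peaks with at least 1000 counts and genes with at least 200 UMIs, r across clusters was above 0 for 59.2% of 2392 shared combinations (57.2 to 61.2%; median 0.08) and for 68.0% of 8858 single-gene combinations (67.0 to 69.0%; median 0.18). With the start of a protein-coding gene inside the peak, the shares were 57.1% (54.8 to 59.4%) and 68.2% (66.9 to 69.5%). With the start not inside, they were 66.9% (62.4 to 71.1%) and 67.9% (66.3 to 69.4%), with intervals that overlap. Over all combinations, shared peaks had the lower share also in each library alone. These shares were not matched for opening, which was higher at shared peaks, and its part in them was not tested. Single-gene peaks, and genes without a shared peak, could also enter the clustering, from which shared peaks and paired genes were left out. The part of this in the shares, and in the SD below, was not tested. Combinations reuse peaks and genes, so their intervals are descriptions only. The SD of log2(CPM + 1) of a peak over clusters had a lower median at shared than at single-gene peaks in each of 6 classes of opening. It was 0.56 and 0.63 at 5 to 10% of nuclei, 0.36 and 0.41 at 10 to 20%, and 0.24 and 0.25 at 20 to 30%, where peaks near no gene had 0.41. The medians were nearly equal, at 0.229 and 0.236, both at 30 to 40% and at 40 to 60%. Dtl and Ints7 ranged from 28.9 to 198 and from 12.4 to 84.3 CPM of RNA between clusters, while the ATAC counts of their peak lay between 74.1 and 108 CPM.

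Between the libraries, shared peaks differed little. Of 2800 shared peaks with enough counts, 0 were at least 1.5-fold higher in library 2, against 0.468% of all such peaks, and 3 (0.107%) were at least 1.5-fold lower, against 1.29%. Single-gene peaks were also below all peaks in both directions, at 0.243% higher and 0.462% lower (12766 peaks). Enough counts were found at 2800 of 3696 shared peaks but at 30559 of all 174339. The sets were not matched for counts or opening, and the part of these in the shares was not tested. The 3 lower shared peaks lay beside Chrm3 and Gm47405 (10.7 and 5.65 CPM of ATAC counts in libraries 1 and 2), Nedd9 and Gm48570 (12.6 and 6.75 CPM) and Cmah and Gm11342 (8.88 and 4.99 CPM). They were highest in unnamed cluster 9, the pro-B-like and the pro-NK/T-like cluster, in that order. Unnamed cluster 9 and the pro-B-like cluster held fewer nuclei of library 2 (131 and 390) than of library 1 (242 and 803), and the part of these clusters in the ratios was not tested. Nedd9, an adhesion scaffold gene, had 120 CPM of RNA in library 1 and 35.3 in library 2. The largest ratios were at the peaks of Taco1os with Taco1 (28.2 and 40.2 CPM of ATAC counts), Nr5a1 with Nr5a1os (5.73 and 8.03) and Ampd2 with Gm12500 (log2 ratio 0.47). Taco1 RNA went the other way, at 32.3 and 12.8 CPM. The RNA of the median gene was also lower in library 2 (log2 ratio -0.67), which bears on the values of Taco1 and Nedd9 alike. Without replicates these are differences between 2 libraries.

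Paired genes differed between the libraries about as often as all genes. The median gene with at least 100 UMIs in each library stood at -0.67 in log2 of library 2 relative to library 1, and the median paired gene at -0.63. Relative to the median, 8.47% of 1888 paired genes were at least 1.5-fold above, against 8.94% of all genes, and 4.77% were at least 1.5-fold below, against 5.36%. Both genes of a divergent protein-coding pair lay on the same side of the median in 117 of 185 pairs (63.2%, 55.9 to 70.2%), and in 59.0% of 266 divergent neighbours without a shared peak (52.9 to 65.0%), with intervals that overlap.

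By gene group, shared promoters were held by 42 of 67 replication-dependent histone genes (62.7%), 38 of 78 mitochondrial ribosomal protein genes (48.7%), 35 of 72 DNA repair and replication genes (48.6%) and 12 of 26 chaperone genes (46.2%), beside 19.2% of all 21689 protein-coding genes. Oxidative phosphorylation had 39 of 94, aminoacyl-tRNA synthetases 13 of 35 and cytosolic ribosomal proteins 24 of 84. Proteasome subunits had 14 of 50, blood transcription factors 12 of 45 and the type I interferon response 8 of 30. The 19.2% includes genes with no peak nearby: of the 21689, 4166 had a shared peak and 11875 single-gene peaks only. Few listed genes had neither, so 19.2% is a low base for the lists, as is the 7.25% given below for divergent pairs. With a protein-coding partner in divergent arrangement, the shares were 40.3% of histones (27 genes), 28.2% of mitochondrial ribosomal proteins (22), 27.8% of DNA repair (20), 26.9% of chaperones (7), 24.5% of oxidative phosphorylation (23), 17.1% of tRNA synthetases (6), 16.0% of proteasome subunits (8), 11.9% of cytosolic ribosomal proteins (10), 3.33% of interferon genes (1) and 0 blood transcription factors, beside 7.25% of protein-coding genes. Among histones, Hist1h1e (1477 UMIs) lay on the same strand as Hist1h2be (224), and Hist1h2bc (1024) was divergent from Hist1h2ac (854); near-identical members of this family can exchange reads. Among DNA repair and replication genes, the sliding clamp Pcna (2895 UMIs) was divergent from AV099323 (51 UMIs) and Mcm7 (1936) interleaved with Ap4m1 (348). Among chaperones, after Hsp90b1 and Hspd1, the chaperonin subunit Cct6a (2678) was interleaved with Psph (138). The partners of the blood transcription factors with most UMIs, Zeb2 and Ikzf1, were noncoding: Zeb2os (139 UMIs beside 12685) and Gm11999 (27 beside 5980). In the interferon group, the antigen transporter gene Tap1 (706) was interleaved with the immunoproteasome subunit Psmb9 (391), with a peak open in 34.4% of nuclei.

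The sequence of shared peaks was rich in CpG. In the 300 bases around the peak midpoint, 71.2% of shared peaks (69.7 to 72.6%) had a GC content of at least 50% and an observed over expected CpG ratio of at least 0.6, beside 30.3% of single-gene peaks and 9.05% of all peaks. Shared peaks with the starts of 2 protein-coding genes inside reached 91.0%, and single-gene peaks with 1 such start 70.2%. Among start peaks of equal opening, the shares were 60.9% and 42.1% below 10% of nuclei, 81.7% and 73.4% at 10 to 20%, 93.8% and 91.3% at 20 to 30%, and 93.8% and 95.7% at 30% or more. The intervals overlapped in the 3 more open classes and not below 10%, where 46 shared peaks gave 45.4 to 74.9% and single-gene peaks 40.6 to 43.5%. The ETS letters CCGGAAG, on either strand, were in 17.8% of shared peaks, 6.63% of single-gene peaks and 3.33% of all peaks. Among start peaks open in less than 10% of nuclei, they were in 4.35% of 46 shared (0.531 to 14.8%) and 4.05% of single-gene peaks (3.48 to 4.67%), and at 10 to 20% in 28.0% of 93 shared (19.1 to 38.2%) and 14.6% of single-gene peaks (13.3 to 16.0%). Among those open in 20 to 30%, they were in 37.7% of shared (32.1 to 43.5%) and 23.8% of single-gene peaks (22.2 to 25.5%), and in those open in 30% or more in 29.8% (25.8 to 33.9%) and 20.1% (18.5 to 21.8%). The SP letters GGGCGG were in 60.8% of shared, 31.2% of single-gene and 13.5% of all peaks. Among start peaks below 10% of nuclei they were in 54.3% of shared (39.0 to 69.1%) and 44.6% of single-gene peaks (43.2 to 46.1%), and at 10 to 20% in 74.2% (64.1 to 82.7%) and 65.7% (63.9 to 67.5%), with intervals that overlap in both classes. They were less frequent at shared peaks in the more open classes, at 67.1% (61.4 to 72.5%) and 76.5% (74.9 to 78.1%) for 20 to 30%, and 75.5% (71.5 to 79.1%) and 84.7% (83.2 to 86.2%) for 30% or more. CCAAT was in 34.9% of shared, 30.4% of single-gene and 31.0% of all peaks. Among letters of blood cell factors, AGATAA, bound by the Gata1 family, was in 4.71% of shared, 10.1% of single-gene and 13.3% of all peaks. TGTGGT, bound by RUNX factors, was in 12.7%, 23.4% and 29.7%, and GAGGAAGT, bound by PU.1, in 3.95%, 7.66% and 9.80%. Single-gene peaks with the start of a protein-coding gene inside held them in 4.44%, 12.5% and 3.64%, close to the shares of shared peaks, so the low shares were not particular to shared peaks. The shared windows had a higher GC content (median 63.7%, against 48.7%), and its part in these shares was not tested.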

How the data were processed

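Nuclei of sorted mouse bone marrow cells were profiled by 10x multiome sequencing in 4 samples. Per the labels and the study's methods, the authors aligned reads to GRCm38 (mm10) with Cell Ranger ARC 2.0.0, and the deposited matrix holds raw counts of UMIs per gene and ATAC counts per peak, with both libraries aggregated. The submitters' processing notes also name Seurat 4.0.3 and Signac 1.3.0.

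Distances were taken between peaks and the deposited gene intervals (maximum 1 kb). Gene types, strands and annotated starts came from GENCODE mouse release 21 and sequences from the RefSeq genome of GRCm38. Barcodes with at least 200 genes and 1000 to 50000 peak counts were kept, and doublets and free RNA were not removed. Clusters were made with Seurat 5.3.0 in R 4.3.3 (30 dimensions, resolution 0.8). CPM used all UMIs or ATAC counts of a library or cluster, r used log2(CPM + 1), and neighbouring pairs lay within 50 kb. Each group held 1 sample, so no test was run and no p-value is given. Ratios between libraries needed 1000 counts of a peak in 1 library and 200 in the other, or 100 UMIs of a gene in each. The scripts were tested on simulated data. Named pairs and peaks followed set rules: listed pairs with most UMIs, most open peaks, highest and lowest r, most unequal levels, most genes, and largest and smallest library ratios. The values of 1 listed pair are not reported here. The members and lists were chosen with earlier results of these data known.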

Additional observations from a re-analysis of the deposited data

How the results depend on the processing

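No paired analysis was possible because each group held 1 sample, and for the same reason no replicate could be left out. Of 82 alternatives, 27 stayed within the interval of the value or within 1.5 times the count. Shared peaks kept the higher median opening in 8 of 8 settings, paired genes the higher detection in 8 of 8, and shared peaks the lower share of positive peak and gene correlations in 12 of 12. All 12 used clusters made without the shared peaks and paired genes. Shared-promoter pairs exceeded neighbouring pairs in 8 of 9. In library 2 alone, with the UMI minimum applied there, they did not (60.2% of 118 and 61.0% of 372 pairs). For the same 363 and 1036 pairs as over both libraries, library 2 gave 60.6% and 59.7%, with intervals that overlap. Depth limits the correlations to 363 of 3296 pairs. The cause of the changes was not tested.

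Shared peaks numbered 2320 at a distance of 0 bases, 1577 with protein-coding genes only and 2249 with gene intervals of at most 1 kb. Their median opening was 26.1% at 0 bases, 23.8% at 500 bases, 26.9% with protein-coding genes, 24.4% with short intervals, 23.5% in nuclei with 500 genes, 21.9% in library 1, 19.4% in library 2 and 23.9% for peaks of 800 to 1000 bases. For single-gene peaks it was 4.46% at 0 bases, then 5.11%, 9.91%, 5.03%, 4.54%, 4.08% and 4.86% in the same order without 500 bases. The share of paired genes detected was 70.9% at 0 bases, 65.7% at 500 bases, 83.3% with protein-coding genes, 57.8% in nuclei with 500 genes, 55.6% in library 1, 55.2% in library 2, 80.4% at 5 UMIs and 43.9% at 100 UMIs. For single-promoter genes it was 65.4%, 61.2%, 70.2%, 52.6%, 51.3%, 50.9%, 75.9% and 41.4% in that order.

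The share of shared-promoter pairs with r above 0 was 66.9% with median-of-ratios size factors and 70.6% at 20 UMIs. At 1000 UMIs it was 88.9%, over only 18 pairs (65.3 to 98.6%). Without the ribosomal-locus genes, a setting chosen after seeing the data, it was 68.3%. For neighbouring pairs it was 56.3% with size factors, 70.3% at 1000 UMIs (74 pairs, 58.5 to 80.3%) and 56.9% without the locus. The intervals at 1000 UMIs overlap. For shared peaks and genes it was 56.3% at 0 bases, 52.9% with protein-coding genes, 54.4% in library 1, 54.7% in library 2 and 57.2% with size factors. For single-gene peaks and genes it was 62.0% in library 1, 60.8% in library 2, 66.8% with size factors, 65.7% at 1000 UMIs, 69.2% at 20 UMIs, 69.1% with a pseudocount of 10 CPM and 69.6% without the locus.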

Other observations

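Within nuclei, both genes of a divergent protein-coding pair with a shared peak were detected together in 12918 nuclei over 212 pairs, where 12161.9 were expected from their separate detection within the same cluster, library and class of UMI depth (ratio 1.06). Divergent neighbours without a shared peak had a ratio of 1.04 (303 pairs).

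Of the 363 pairs with a shared peak, 4 (1.10%) had r below -0.5 across clusters. The share was 2.70% of neighbouring pairs without a shared peak and 3.15% of all pairs of genes. The 4 were named after their values were seen: Pcnx3/Map3k11 (-0.60), 1600010M07Rik/Zfp143 (-0.57), Gm26917/Gm42418 at the ribosomal locus (-0.53) and Idh1/Pikfyve (-0.51). All 3 shared peaks that were at least 1.5-fold lower in library 2 lay on chromosome 13, where 1.23% of peaks were lower, beside 1.29% of all peaks.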
